A study of Mus musculus with 3 samples.

Results

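The cells described here are classical Ly6c2 monocytes of the mouse aorta, chosen from droplet single-cell RNA counts by a rule on 9 genes. A kept barcode held at least 200 detected genes and at most 10% mitochondrial unique molecular identifiers (UMIs, the tags that count single RNA molecules). A member held at least 2 UMIs of Ly6c2, at least 1 of Vcan and Chil3 together, at least 1 of Csf1r, at most 1 of C1qa, and 0 of Treml4, Retnlg, Cd79a and Cd3e. The rule found 315 members among 20903 kept barcodes: 111 of 6038 in control, 87 of 8155 in HHcy and 117 of 6710 in WD. They were described against the other kept barcodes with Csf1r and without Cd79a and Cd3e, which numbered 1829, 1214 and 2750. Wherever values stand in a row of 3, they follow this order: control, HHcy, WD.

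All 3 libraries came from mice labelled ApoE-/- on C57BL/6J, a strain that lacks apolipoprotein E and is used as a model of atherosclerosis. The labels call the control mice Control and name no supplement for them. For 4 weeks the HHcy mice drank water that held 1.8 g/L of Hcy (homocysteine). The WD mice ate a western diet over the same length of time. Whole aortas with their adventitia were perfused and digested, and live nucleated CD45+ cells were sorted. Each group is 1 library, and the labels give neither the number of mice in it nor their age or sex, so no test between groups was possible. All intervals are 95% intervals for counting error only, and do not cover the spread between mice. In the library labelled HHcy, Apoe went against its label: C1qa macrophages held 1321 CPM there (UMIs of a gene scaled to a fixed total of all UMIs in the class), against 28.7 in the control and 27.4 in the WD library.

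Classical monocytes are short-lived blood cells that leave the bone marrow through the chemokine receptor CCR2 and enter inflamed tissue, where they can turn into macrophages or antigen-presenting cells. In mice they carry the surface protein Ly6C on the cell membrane, and a part of them turns into patrolling, nonclassical monocytes under the factor Nr4a1. In atherosclerosis they enter the vessel wall, and macrophages that take up lipid there are called foam cells.

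Of Csf1r barcodes, members made up 5.72% (4.73 to 6.85) in control. The share was 6.69% (5.39 to 8.18) in the library labelled HHcy. It was 4.08% (3.39 to 4.87) in WD. The WD share was the lowest, with a log2 ratio to control of -0.49 (-0.85 to -0.12). For the library labelled HHcy it was 0.22 (-0.17 to 0.62), an interval that holds 0. As a share of all kept barcodes the order differed: 1.84% (1.51 to 2.21), 1.07% (0.855 to 1.31) and 1.74% (1.44 to 2.09). The denominators moved with the groups, since C1qa macrophages (C1qa at 2 or more) were 50.3%, 53.4% and 70.2% of Csf1r barcodes. The share of 1 type therefore cannot be told apart from the number of another. The C1qa clause of the rule also cut the groups unequally. Alone it left out 17 of 128, 18 of 105 and 61 of 178 barcodes that met every other clause. These are 13.3%, 17.1% and 34.3%. Without this clause, members would be 128 of 1940, 105 of 1301 and 178 of 2867 Csf1r barcodes. On these counts the WD share lies closer to that of control than under the full rule. No interval was computed for them.

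**Figure D1:**
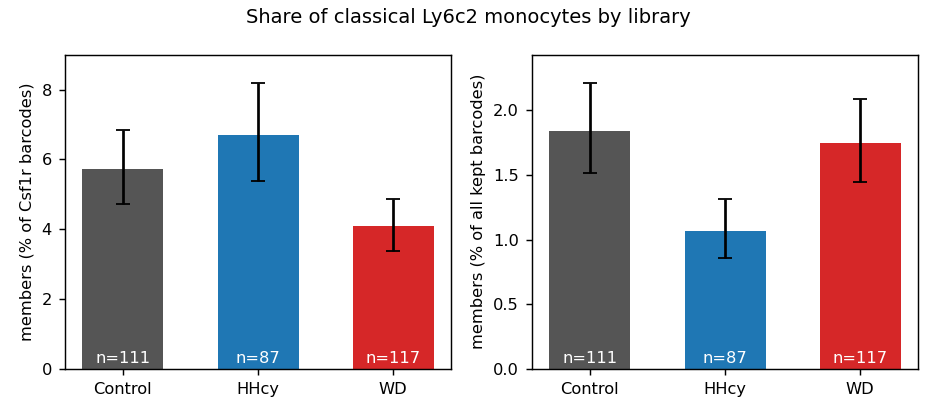
Members as a percentage of Csf1r barcodes (left) and of all kept barcodes (right) in each library; bars are shares, error bars are exact 95% binomial intervals, and n is the number of members. The WD bar is lowest on the left (4.08%) and the HHcy bar is lowest on the right (1.07%).

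Median depth per member was 9361, 12291 and 11697 UMIs, over 1115791, 1069807 and 1447824 UMIs in all. Libraries shared 20 to 24 called cell barcodes in each pair, and no member carried a shared one. The clause on Retnlg, a neutrophil gene, alone left out 7, 26 and 8 barcodes. Of these, 2, 18 and 6 held exactly 1 Retnlg UMI. The remaining 5, 8 and 2 held between 11 and 468 Retnlg UMIs together with at least 433 UMIs of S100a8, and none held 2 to 4. In B cell barcodes, which should lack the gene, 2.83%, 8.25% and 3.28% held 1 Retnlg UMI, against 1.69%, 15.9% and 4.80% of the barcodes that met every other clause. Lymphocyte markers were low in members: listed B cell genes summed to 253, 539 and 282 CPM, against 17331, 27608 and 21562 in B cell barcodes. T and NK cell genes summed to 17.9, 42.1 and 80.1. At least 2 lymphocyte markers were held by 5, 6 and 8 members. At least 2 of the neutrophil markers Csf3r, Cxcr2, Mmp8 and Il1r2 were held by 35 of 111, 46 of 87 and 48 of 117 members. Csf3r was found in 62, 54 and 71 members and Cxcr2 in 2, 2 and 1. The neutrophil list summed to 12748, 9778 and 536. In the control and HHcy libraries most of this was S100a8 and S100a9, of which 10 barcodes held 98.3% or more. At the edge of the Ly6c2 clause, the 10 members with 2 UMIs held 757 CPM of Ccr2 and the 34 barcodes left out with 1 UMI held 415. At the C1qa edge, the 95 members with 1 UMI held 632 and the 21 barcodes left out with 2 UMIs held 364.

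Of the 4 markers named for the type, the rule chose on Ly6c2, Vcan and Chil3, so their levels are a description and do not check the label. Only Ccr2 lies outside the rule. Ly6c2, on chromosome 15 (GRCm38, chr15:75108158-75111970), stood at 2495, 2442 and 2453 CPM of all member UMIs. These values lie within 0.03 of each other on the log2 scale. Ccr2, the receptor for the chemokine CCL2 (chr9:124101950-124113557), stood at 622, 887 and 534 against 220, 232 and 215 in the other Csf1r barcodes. It was found in 95 of 111, 81 of 87 and 95 of 117 members.

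Of the 9857 genes counted, 72 (0.73%) were at least 2-fold higher in members than in the other Csf1r barcodes in each library, and 436 (4.42%) were at least 2-fold lower. The rule that picked the members used this contrast, so these counts describe the choice and support nothing. Among 21 counted genes of the classical monocyte list outside the rule, 8 were higher in every library and 0 were lower. Ccr2, Plac8, Hp, Mgst1, Thbs1, F10 and Ms4a4c were among the 8. Hp, which encodes haptoglobin, stood at 554, 950 and 716 in members and 151, 333 and 164 in the others. Thbs1, the matrix protein thrombospondin, stood at 1202, 1031 and 1493 against 291, 336 and 218. Fn1 and F13a1, also listed as classical markers, were not among the 8. Fn1 (fibronectin) had log2 ratios of -0.49, -0.60 and 0.10, and C1qa macrophages held 1282, 1438 and 730.

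The highest genes outside the marker lists included receptors and signalling proteins. Adora2b, an adenosine receptor, stood at 70.8, 92.5 and 82.2 CPM in members and at 14.6, 18.8 and 15.6 in the others, and was found in 43, 49 and 53 members. Met, the receptor for hepatocyte growth factor, stood at 31.4, 26.2 and 52.5 against 6.76, 7.13 and 7.05. Nrg1, a ligand of ErbB receptors, stood at 43.0, 19.6 and 67.0 against 4.76, 4.28 and 3.55. Fcnb, a ficolin of monocytes and granulocyte precursors, was the highest by this ranking, but 10 barcodes held 96.0% or more of its UMIs in each library. The 20 highest also held AI839979, Dmkn, Plcb1, Arhgef37, Aldh1b1, Ms4a4c, Ptgs2os, Morrbid, Ethe1, Svip, Mefv, C1rl, C1galt1c1, Rhou and Hopx.

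Macrophage genes lay at the other end. Of 19 listed macrophage genes outside the rule, 14 were at least 2-fold lower in members in every library. C1qc, a subunit of complement C1q, had 27.8, 48.6 and 39.4 CPM in members and 1098, 1385 and 1682 in the others. B cell barcodes held 18.0, 21.01 and 28.5 of C1qc, below the members in each library. Prg4, Folr2, Gas6, Cd5l, Alox15, Cd209f, Fxyd2, Dcn and Col1a2 completed the 10 lowest. Each of these 9 had at most 12 UMIs over all members of a library. Of 11 class II antigen presentation genes, 5 were lower: H2-Aa, H2-Ab1, H2-Eb1, Cd74 and H2-Ob. Of 13 nonclassical monocyte genes, 6 were lower, among them Ace and Spn. Ace, the angiotensin converting enzyme, stood at 72.6, 21.5 and 18.0 in members and at 479, 335 and 308 in Treml4 monocytes, the nonclassical class.

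**Figure D2:**
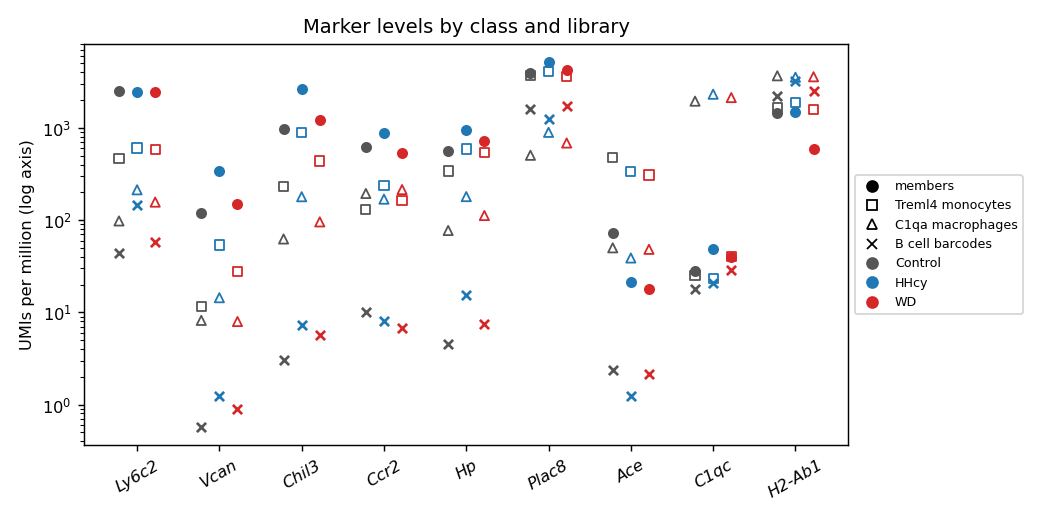
CPM (log axis) of 9 genes in members, Treml4 monocytes, C1qa macrophages and B cell barcodes; colours are libraries and symbols are classes. Members lead for Ly6c2, Vcan, Chil3 and Ccr2, Ace is highest in Treml4 monocytes and C1qc in C1qa macrophages.

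Members differed among themselves more than the sums show. Small sets of barcodes held most UMIs of several gene groups, with limits set after the values were seen. Barcodes with at least 10 UMIs of the granule genes Camp, Ngp and Ltf, which neutrophil precursors fill into granules, numbered 4, 1 and 0. In the control library those 4 held 2713 of 2725 UMIs of these genes, and in the library labelled HHcy 1 barcode held 1029 of 1046. Barcodes with at least 10 UMIs of Elane, Mpo, Prtn3 and Ctsg, proteases and peroxidase of early myeloid cells, numbered 3 in each library. Cycling barcodes, with at least 3 UMIs of Mki67 and Top2a, numbered 13 of 111, 9 of 87 and 15 of 117, so 11.7% (6.39 to 19.2), 10.3% (4.84 to 18.7) and 12.8% (7.36 to 20.3) of members. These intervals count barcodes of 1 library per group and do not compare groups. All 4 granule barcodes of the control library were among its cycling barcodes.

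**Figure D3:**
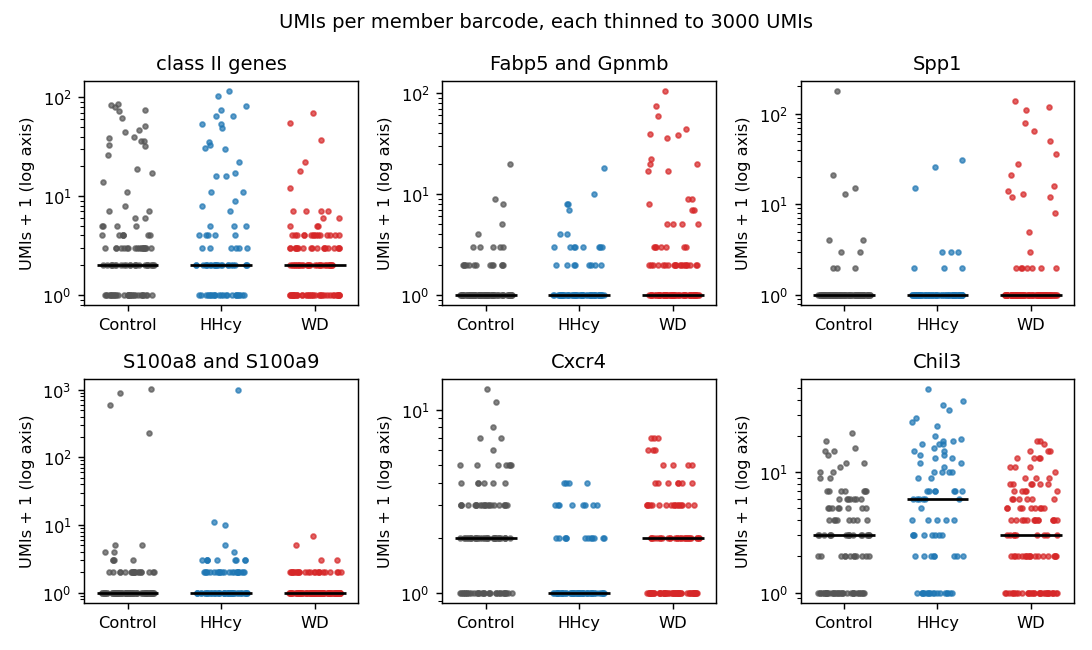
UMIs plus 1 (log axis) per member after each barcode was thinned to 3000 UMIs; points are barcodes, lines are medians, and 109, 83 and 117 members were deep enough (control, HHcy, WD). Class II, foam and S100 genes sit in a few high barcodes, while Cxcr4 and Chil3 differ across many.

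Between the library labelled HHcy and the control library, 5034 genes were counted in members. In the library labelled HHcy 42 of them (0.834%) were at least 2-fold higher and 93 (1.85%) at least 2-fold lower, with intervals that excluded a log2 ratio of 0. For 32 of the 42 and 54 of the 93, 10 barcodes held over 50% of the UMIs in the higher library. The median log2 ratio over all counted genes was -0.04. Genes of the rule were not left out of the counts between libraries, and Chil3 and Vcan are among the 42.

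Chil3, a chitinase-like secreted protein (chr3:106147554-106167564), stood at 972, 2658 and 1221 CPM, a log2 ratio of 1.45 (1.35 to 1.55) for the library labelled HHcy to control. The 10 highest barcodes held 48.5% of its UMIs in the library labelled HHcy. After thinning to 3000 UMIs, 66.1%, 78.3% and 72.6% of members held it. Its sum was also higher in the other classes, with log2 ratios of 1.52 in C1qa macrophages and 1.94 in Treml4 monocytes. B cell barcodes held 3.01, 7.22 and 5.70. Vcan, the proteoglycan versican, followed the same order at 119, 342 and 148. Both genes belong to the rule, which set only their minimum.

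Cxcr4, the receptor that holds leukocytes in the bone marrow (chr1:128588199-128592293), stood at 471, 162 and 360 CPM. Its log2 ratio to control was -1.54 (-1.80 to -1.29) in the library labelled HHcy. Thinned members held it in 68.8% (59.2 to 77.3), 28.9% (19.5 to 39.9) and 53.8% (44.4 to 63.1), lowest in the library labelled HHcy. These intervals count barcodes of 1 library per group and do not compare groups. Treml4 monocytes also had less Cxcr4 in the library labelled HHcy, with a log2 ratio of -0.91. B cell barcodes express the gene too and held 403, 386 and 364, with little difference between libraries. Klf4, a factor of monocyte differentiation, stood at 618, 264 and 416, with a log2 ratio of -1.23 (-1.44 to -1.03) in the library labelled HHcy. It belongs to the immediate early list, of which all 18 counted genes had ratios below 0, with a median of -0.42, although only Klf4 passed the 2-fold limit. The heat shock list had 11 of 11 below 0, and Hspa1a and Hspa1b passed the limit. In WD against control this list also had 11 of 11 below 0, with the same 2 genes past the limit. Hspa1a stood at 212, 43.9 and 73.9. B cell barcodes held 41.9, 18.9 and 31.9 of Hspa1a and 406, 191 and 355 of Klf4, so both were also lowest there in the library labelled HHcy. The part of a shift shared by all cells of a library was not tested.

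Saa3, an acute phase protein, stood at 16.1, 150 and 69.8 CPM in members, and Lrg1, a secreted leucine-rich glycoprotein, at 8.07, 84.1 and 2.07. Both were highest in the library labelled HHcy, with log2 ratios to control of 3.21 (2.51 to 4.00) and 3.38 (2.39 to 4.56). The 10 highest barcodes held 85.0% and 73.3% of their HHcy UMIs. B cell barcodes held 7.66, 10.6 and 9.62 of Saa3 and 1.22, 7.84 and 2.49 of Lrg1. Other named genes rested on single barcodes: 1 barcode held all 49 UMIs of Edn1 (endothelin) and all 99 of Mpo in the library labelled HHcy, and 1 control barcode held 131 of 142 UMIs of Cxcl3. Apoe stood at 19.7, 108 and 11.1 in members and at 5.15, 51.4 and 6.41 in B cell barcodes. Igkc, an antibody chain of B cells, stood at 64.5, 269 and 74.6, and in B cell barcodes at 6479, 15358 and 8680. It had the same order in members as in the B cell barcodes. The other genes among the 15 highest were Elane, Csf3, Igfbp6, Bambi, AY036118, Ccl5, Serpinb1a and Aig1. The other genes among the 15 lowest were Hspa1b, Spp1, AA467197, Hivep3, Hes1, Ccl7, Camp, Ifi44, Ngp, Mmp14, Clec4n and Gm26532. The classical monocyte list had 0 of 21 counted genes past the limit in either direction, with a median of 0.21.

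Between the WD and control libraries, 5460 genes were counted in members. Of these, 96 (1.76%) were at least 2-fold higher in the WD library and 94 (1.72%) at least 2-fold lower. For 69 of the 96 and 51 of the 94, 10 barcodes held over 50% of the UMIs in the higher library. The median over all counted genes was -0.06.

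Genes of lipid-loaded macrophages were higher in WD members. Of 22 counted genes of the foam cell list, 7 passed the 2-fold limit upward and 0 downward, with a median log2 ratio of 0.79. The same list had medians of 0.58 in Treml4 monocytes, 0.44 in B cell barcodes and 0.02 in C1qa macrophages, so part of the shift was shared with other classes. The 7 were Fabp4, Fabp5, Gpnmb, Spp1, Cd9, Ctsd and Acp5. Fabp5, a fatty acid binding protein (chr3:10012548-10016607), stood at 168, 201 and 1753 CPM, a log2 ratio of 3.38 (3.16 to 3.60). Gpnmb, a lysosomal membrane glycoprotein, stood at 58.3, 48.6 and 272, and Spp1, osteopontin, at 1084, 313 and 2538. Spp1 rests on few barcodes, since 1 control barcode held 963 of 1209 UMIs.

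For 6 of the 7, 10 barcodes held over 50% of the WD UMIs, from 66.3% for Cd9 to 92.0% for Fabp4, and for Ctsd they held 45.2%. With a limit of 20 UMIs of Fabp5 and Gpnmb together, 3 of 111, 3 of 87 and 17 of 117 members reached it, and the 17 held 91.1% of the UMIs of both genes in the WD library. After thinning, with a limit of 5 UMIs, the counts were 3 of 109, 5 of 83 and 17 of 117. Ly6c2 and Ccr2 were lower in the 17 than in the other 100 WD members, and Chil3 was nearly equal. Ly6c2 stood at 651 CPM in the 17 and 2845 in the 100, Ccr2 at 81.3 and 632, and Chil3 at 1143 and 1238. In the same barcodes C1qb, a macrophage complement gene, stood at 240 and 82.4. These are descriptions, since the rule used Ly6c2 and Chil3 and the limit was set after the values were seen. Outside the 17, which were picked on Fabp5 itself, the gene stood at 188 in the WD library, against 81.8 and 97.4 outside the corresponding barcodes of the control and HHcy libraries.

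Some lipid and lysosome genes were spread more widely. Ctsd, the lysosomal protease cathepsin D, stood at 349, 337 and 851 CPM and was found in 75 of 111, 73 of 87 and 107 of 117 members. Its log2 ratio in WD to control was 1.29 (1.12 to 1.46), against 0.01 in C1qa macrophages and 0.91 in Treml4 monocytes. After thinning, 34.9% (25.99 to 44.6), 50.6% (39.4 to 61.8) and 64.1% (54.7 to 72.8) of members held it. Abca1 and Abcg1, cholesterol exporters driven by the LXR receptors, stood at 64.5, 52.3 and 114, and at 86.0, 59.8 and 164. Neither passed the 2-fold limit against control.

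Class II antigen presentation genes were lower in WD members. Of 9 counted genes, 0 had a ratio above 0 and 4 passed the 2-fold limit downward, with a median log2 ratio of -0.90. H2-Ab1, which encodes the beta chain of the I-A molecule (chr17:34257689-34269419), stood at 1447, 1480 and 587 CPM, a log2 ratio of -1.30 (-1.42 to -1.18). Cd74, the invariant chain, stood at 3433, 3568 and 1369, and Ciita, the class II transactivator, at 35.8, 27.1 and 14.5. C1qa macrophages differed little in H2-Ab1, at 3662, 3531 and 3574, and Treml4 monocytes stood at 1637, 1872 and 1586. B cell barcodes, which express it, held 2216, 3180 and 2488.

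Again a few barcodes carried the values. With a limit of 50 UMIs over H2-Aa, H2-Ab1 and H2-Eb1, 17 of 111, 18 of 87 and 6 of 117 members reached it, which is 15.3% (9.18 to 23.4), 20.7% (12.7 to 30.7) and 5.13% (1.90 to 10.8). They held 86.7%, 90.4% and 71.1% of the class II UMIs. After thinning, with a limit of 13 UMIs, the counts were 19 of 109, 17 of 83 and 5 of 117. Outside these barcodes, which were picked on H2-Ab1 itself, the gene stood at 280, 207 and 205. In the high barcodes of the control library, Ly6c2 stood at 1429, against 2738 in the other control members. Ccr2 did not follow, at 825 and 576.

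The upstream sequences of H2-Aa and H2-Eb1 are shown because both genes encode class II chains. H2-Aa passed the 2-fold limit in WD against control, at a log2 ratio of -1.19 (-1.31 to -1.07). H2-Eb1 did not, at -0.87 (-1.01 to -0.73). Class II promoters are known to carry a box bound by NF-Y. The letters GATTGG hold the reverse complement of its CCAAT core. They were searched on both strands in the 100 bases before the RefSeq gene start (GRCm38.p6). They are in capitals, and 8.62% of 32851 promoters hold them. Coordinates are chr17:34287824-34287923 (minus strand) and chr17:34305767-34305866 (plus strand), and H2-Eb1 holds a match on each strand. The windows of H2-Ab1 and H2-DMb1 are not shown, and no count of class II promoters with these letters is drawn from these 2.
H2-Aa: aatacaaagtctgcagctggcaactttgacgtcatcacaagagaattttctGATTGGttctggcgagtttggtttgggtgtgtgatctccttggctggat
H2-Eb1: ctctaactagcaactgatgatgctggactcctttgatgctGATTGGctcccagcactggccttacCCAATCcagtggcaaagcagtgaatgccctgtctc
A match is a description of these letters only.

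Neutrophil genes were lower in the sum over WD members, with 7 of 12 counted genes past the 2-fold limit. S100a8 stood at 4465, 4177 and 71.1 CPM. The highest barcode held 2883 of 4982 UMIs in the control library, 4275 of 4469 in HHcy and 22 of 103 in WD. With barcodes left out that held 10 or more UMIs of the granule genes or of Elane, Mpo, Prtn3 and Ctsg, the WD to control log2 ratio of S100a8 went from -5.97 to 0.28, and that of Camp from -8.13 to 0.79. The direction of both genes in WD members rests on those barcodes. Retnla, a secreted protein of alternatively activated macrophages, stood at 457, 199 and 22.8, and 1 barcode held 320 of its control UMIs. Further genes among the 15 lowest were S100a9, Ngp, Ltf, Wfdc21, Lcn2, Fcnb, Hspa1b, Gm26532, Ly6a and Hspa1a, and among the 15 highest Mpo, Ccl5, Areg, Ccl24, Ctla2a, Flrt3, Gdf15, Cd63, AY036118, Scimp and Emp1.

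Nonclassical monocyte genes were lower in WD members, although the rule had set Treml4 at 0. Of 11 counted genes, 10 were below 0 and 4 passed the 2-fold limit, with a median log2 ratio of -0.96. The library labelled HHcy also had 10 of 11 below 0 against control. Its median was -0.48, and 2 genes, Ace and Ear2, passed the limit downward. Other classes of the library labelled HHcy had similar medians, at -0.41 in Treml4 monocytes, -0.37 in B cell barcodes and -0.30 in C1qa macrophages. For WD against control the same classes had -0.33, -0.14 and -0.03. The part of the shift shared by all cells of a library was not tested. Between the library labelled HHcy and the WD library, 0 of 10 counted genes passed the limit, with 6 above 0 and a median of 0.34. Over all genes counted in that comparison, 1.44% passed it upward and 2.43% downward. Values below control were thus seen in both libraries, with the lower median in WD. Cx3cr1, the fractalkine receptor, stood at 178, 110 and 67.7, and its WD to control ratio was -1.40 (-1.76 to -1.04). It was found in 71 of 111, 41 of 87 and 42 of 117 members. Its ratio was 0.16 in C1qa macrophages and -0.30 in Treml4 monocytes. Ear2, a ribonuclease, stood at 97.7, 38.3 and 31.1. Klf2, a factor of quiescent leukocytes, stood at 422, 291 and 210. Stat2, an interferon signalling factor, stood at 103, 58.0 and 36.6, while Isg15 stood at 250, 224 and 227. The interferon list had 1 gene past the limit upward and 1 downward among 24 counted.

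Inflammatory genes had a median WD to control log2 ratio of 0.40, with 18 of 24 above 0, 6 past the 2-fold limit upward and 0 downward. The 6 were Ccl2, Ccl5, Cxcl1, Il1rn, Il1a and Il10. Ccl2, the ligand of CCR2, stood at 503, 380 and 1333 CPM, a log2 ratio of 1.41 (1.27 to 1.54). For each of the 6, 10 barcodes held over 50% of the WD UMIs, from 56.1% for Ccl2 to 93.5% for Il10. Il1b stood at 2056, 2400 and 2410, and Nlrp3, the inflammasome sensor, at 331, 364 and 319. Neither passed the limit.

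Between the library labelled HHcy and the WD library, 77 (1.44%) of 5356 genes were at least 2-fold higher in the first and 130 (2.43%) at least 2-fold lower. Of 22 foam cell genes 11 were lower, and of 9 class II genes 5 were higher. Both libraries also stand in a comparison above, so these values are not independent of those. Cxcr4 had a log2 ratio of -1.15 (-1.41 to -0.90). Lrg1 had 90 UMIs in HHcy members and 3 in WD members, a log2 ratio of 5.34 (3.75 to 7.65). Mirt1, Serpinb2 and Igfbp6 were among the 15 highest, and Pdpn, Il7r, Il1rn and Sdc4 among the 15 lowest.

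Few genes of homocysteine and methionine metabolism, the pathway of the HHcy supplement, could be counted. Of 22 genes, 6 were counted against control in the library labelled HHcy. Of these, 0 passed the 2-fold limit in either direction, with a median log2 ratio of -0.16. Over all genes counted in this comparison, 0.834% passed it upward and 1.85% downward, so 0 of 6 says little about the pathway. Mat2a, which makes S-adenosylmethionine, stood at 165, 123 and 124 CPM, a ratio of -0.42 (-0.75 to -0.09). Cbs, which turns homocysteine into cystathionine, had 0, 0 and 1 UMIs, so its level was not detectable at this depth.

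**Figure D4:**
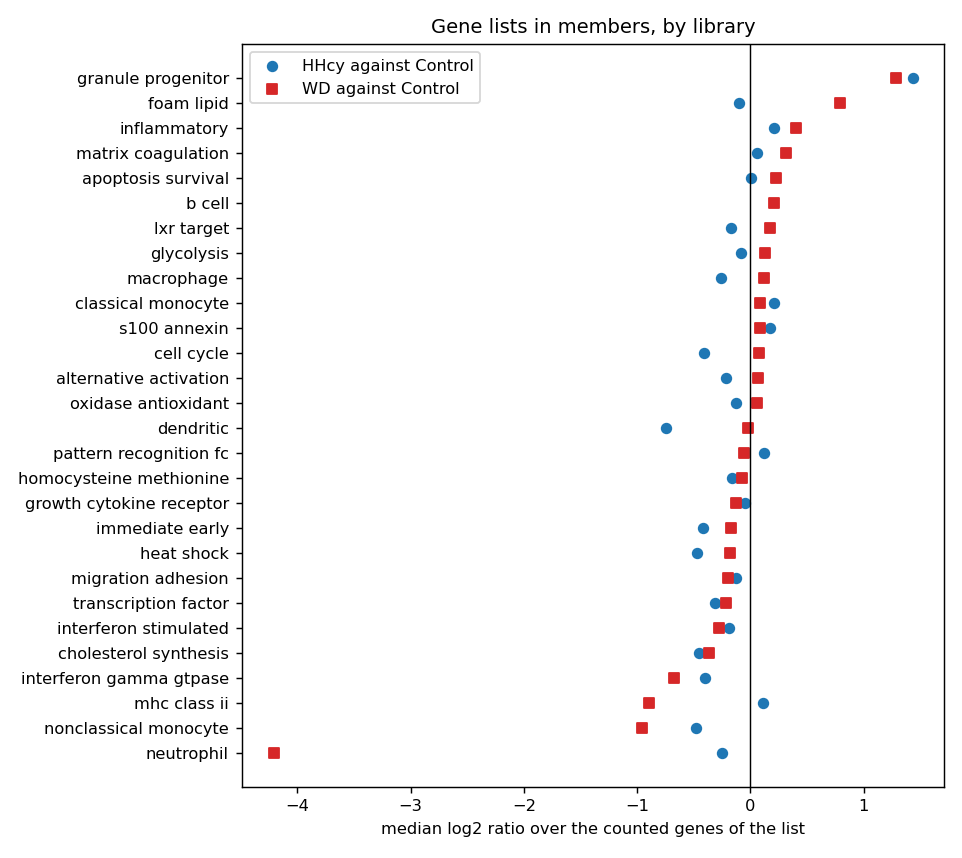
Median log2 ratio over the counted genes of each list in members, for the library labelled HHcy (circles) and the WD library (squares) against control; lists with fewer than 3 counted genes in a comparison are not drawn. In WD, the medians furthest from that over all genes (-0.06) are neutrophil (-4.21), granule progenitor (1.29), nonclassical (-0.96), class II (-0.90) and foam (0.79). The next is the interferon-gamma GTPase list (-0.67). In HHcy, where the median over all genes is -0.04, the furthest are granule progenitor (1.43) and dendritic (-0.74, 3 counted genes). The granule progenitor medians rest on 4 counted genes in HHcy and 5 in WD. A few barcodes held most UMIs of the neutrophil, granule progenitor, foam and class II genes described in the text.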

How the data were processed

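The authors deposited raw UMI counts per gene and barcode, 1 matrix per library, over 32285 genes. Per the file headers they were written by Cell Ranger 4.0.0. The submitters' processing notes name Cell Ranger 2.2.0 and mm10, and the gene annotation is not given in the sources used here. Per the labels' protocols, the kit was Chromium 3' v3. Coordinates are from GENCODE M21 (GRCm38), matched by Ensembl identifier. No doublet caller was run, and the only step against doublets was the rule's clauses on genes of other lineages.

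UMIs were summed over barcodes of a class and divided by the class total (CPM). Ratios are given for genes with at least 50 UMIs over both sides, and a side at 0 was set to 3 UMIs. This minimum was not applied to the alternative log2 ratios of named genes in the closing section. A gene was called past the limit at a log2 ratio of 1 or more with an interval that excluded 0. Ratio intervals are conditional binomial, shares carry Clopper-Pearson intervals, and the log2 ratio of 2 shares has a normal-approximation interval. Thinning drew 3000 UMIs per barcode. B cell barcodes (Cd79a at 2 or more, Csf1r, Cd3e and C1qa at 0) were used to show the level of a gene in another cell type. The intervals and calls were tried only on simulated Poisson counts with no spread between barcodes. That trial cannot show how they hold when few barcodes carry a gene.

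The members and all gene lists were chosen with earlier results of these data known. The genes named were the 4 markers, list genes, the 20 highest and 10 lowest against other barcodes, and the 15 highest and 15 lowest per pair of libraries by the bound nearest 0. Limits for the small sets of barcodes, some further genes and 4 alternatives (on Retnlg, granule barcodes and the top barcode) were chosen after the values were seen. In the files 38 symbols have more than 1 identifier, and the listed symbols Mx1, Clec7a and Serpinb10 were not matched. Some genes that meet the naming rule are not reported here. Python 3.11.15, numpy 2.4.6, scipy 1.17.1 and pandas 2.3.3 were used.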

Additional observations from a re-analysis of the deposited data

How the results depend on the processing

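No paired analysis was possible because each group is 1 library, so no replicate could be left out either. Of 178 alternative values for shares and counts of genes, 157 stayed within their interval or within 1.5 times. With C1qa at 0, the shares of Csf1r barcodes were 4.18% for control, 5.15% for HHcy and 2.51% for WD. With barcodes left out that carried markers of other lineages, they were 4.53%, 4.18% and 2.78%, and 275 genes were lower than in other barcodes. With no condition on Retnlg the HHcy share was 8.69%. With barcodes thinned to 3000 UMIs before the rule, 184 genes were lower than in other barcodes, and higher and lower genes numbered 22 and 26 for HHcy against control, 40 and 49 for WD against control, and 28 and 38 for HHcy against WD. With at least 10 UMIs in place of 50, these counts were 134 and 273, 229 and 263, and 193 and 307. Fewer or more genes were tested in those settings.

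Of 1770 alternative values for named genes, 45 reversed and a further 271 left their interval, as did 51 of 1119 list medians. The log2 ratios below are those under the alternative, and the cause was not tested. No minimum of UMIs was applied to them, and a side at 0 was set to 3 UMIs. Some of these values, and some reversals, may therefore reflect that floor and not a measured ratio. For Col1a2 and Dcn against other barcodes, the value is the highest of the 3 libraries. With at most 5% mitochondrial UMIs, HHcy against control gave Mpo -3.23 and Elane -1.37, WD against control gave Mpo -3.61, and HHcy against WD gave Camp -0.84 and Ngp -0.13. With Ly6c2 at 1 or more, Dcn against other barcodes was 0.16. With C1qa at 0, HHcy against control gave Cxcl3 1.16 and AA467197 0.74, and WD against control gave Mpo -0.93. With markers of other lineages left out, HHcy against control gave Mpo -2.40 and Elane -3.18, WD against control gave Mpo -0.85, and HHcy against WD gave Camp -1.14 and Retnla -0.057. With thinning before the rule, Col1a2 and Dcn against other barcodes were 0.98 and 0.52. HHcy against control then gave Mpo -1.49, Cxcl3 0.093, Spp1 2.55, Hivep3 0.093 and Ccl7 0.18, and WD against control gave Ccl24 -0.85 and Fcnb 0.20. HHcy against WD gave Camp -4.52, S100a9 -0.98, S100a8 -0.40, Ngp -2.38, Retnla -1.10 and Serpinb2 -0.64. With no condition on Retnlg, Ngp in HHcy against control was 0.86. With granule barcodes left out, HHcy against control gave Camp 0.019 and Ngp 1.43, and HHcy against WD gave Camp -0.77 and Ngp -0.13. WD against control then gave Mpo -0.43, Camp 0.79, S100a9 0.28, S100a8 0.28, Ngp 1.57, Wfdc21 1.89 and Lcn2 2.09. Without the top barcode of each library, HHcy against control gave Edn1 -0.67 and Elane -0.16, and HHcy against WD gave Camp -0.77 and Ngp -0.0028.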
